A study of Rattus norvegicus with 24 samples.

Results

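Expression in bone around lithium-releasing implants (Li+) was compared with that around matched implants without lithium (Ctrl) inside the same rat, over both healing times together. All 24 arrays of the series entered the comparison as 12 differences, Li+ minus Ctrl, 1 for each of 12 rats. Li+ implants were plugs of poly(lactide-co-glycolic acid), PLGA, a resorbable polyester, that held lithium carbonate, and Ctrl implants were plugs of the same polymer with sodium carbonate. All rats were male Sprague Dawley, carried an implant of each kind in the tibia, and gave peri-implant bone at day 7 (rats 4, 5, 7, 10, 11 and 15) or day 28 (rats 21, 23, 27, 28, 29 and 30), so that each of the 4 groups, Li+ and Ctrl at day 7 and Li+ and Ctrl at day 28, holds 6 arrays. Both implants sat in the same animal, and how much lithium reached the Ctrl site was not measured in these data.

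Lithium is a small cation that inhibits glycogen synthase kinase 3 (GSK3) and a family of magnesium-dependent phosphatases, among them the enzymes that free inositol from its phosphates. GSK3 marks β-catenin for destruction, so its inhibition lets β-catenin build up and drive transcription with the TCF and LEF factors, as a Wnt ligand does. In bone this pathway favours the formation of osteoblasts, and macrophages are the main cells that meet and clear a degrading polymer.

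Values are log2 signals from Affymetrix Rat Gene 2.0 ST arrays, so a difference of 1 is a doubling. Of 36495 probe sets tested, 18166 stand for a gene with a single symbol, and 11124 of these genes lie above the median signal of all probe sets, 7.31. Genes below it are called dim here. The arrays carry a strong bone signature, with medians over the 24 arrays of 12.1 for *Bglap* (osteocalcin), 13.5 for *Col1a1*, 12.4 for *Ibsp* (bone sialoprotein) and 13.4 for *Ctsk* (cathepsin K of osteoclasts). Marrow and muscle were also in the tissue, with *S100a8* of neutrophils at 12.2 and *Ckm* of skeletal muscle between 7.21 and 12.995. Differences past 1 on the log2 scale were most numerous in rat 23 (272 genes) and rat 27 (170 genes), where the list of muscle genes described last stood at -4.60 and 4.15. The plot of gene lists leaves muscle out for that reason.

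No gene differed between Li+ and Ctrl over both days at an adjusted p. With limma and Benjamini-Hochberg adjustment, 0 of 36495 probe sets passed (smallest adjusted p 0.717 overall and 0.963 among the named genes), and the methods' t-test, paired, gave 0 as well. At an unadjusted p under 0.05 limma found 1637 probe sets, 4.49% of those tested, where 5% is the share that the threshold itself allows. Of them, 928 (2.54%) were higher and 709 (1.94%) lower in Li+. Among the named genes 402 were higher (2.21%) and 276 lower (1.52%), and above the median signal 259 (2.33%) and 125 (1.12%). Over all probe sets the lean to the higher side rests on rat 23, without which 809 probe sets were higher and 839 lower. Without rat 23 no such count was made for the named genes or for those above the median signal. The methods' t-test gave 1745 probe sets before adjustment. Everything below is therefore a description of sizes, signs and spread, and a p without the word adjusted is a single-gene p that did not survive the correction.

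The differences in array signal were small and their intervals narrow. The median SD of a gene's difference over the 12 rats was 0.173, and the median distance from the mean to the end of its 95% interval was 0.109. The interval lay wholly within 1.25-fold of no difference for 17401 named genes (95.8%), and within 1.5-fold for 18042 (99.3%). Above the median signal it lay within 1.25-fold for 10824 of 11124 genes (97.3%). These bounds are on array signal, and the study found that fold changes on the arrays tended to be smaller than by qPCR. A small pooled mean can also be made of opposite days. The central 95% of the named genes had pooled differences between -0.12 and 0.12 around a median of 0.00. The ends of the whole range were *Fmod* (fibromodulin, a small proteoglycan on collagen fibrils) at -0.51 and *Ankrd34c* at 0.65. Only 39 named genes (0.215%) differed by 0.3 or more in either direction.

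Past 1.5-fold at an unadjusted p lay 6 of 36495 probe sets (0.0164%), of which 5 have no symbol. The sixth is *Ankrd34c*, whose product carries ankyrin repeats. Its log2 signal ran from 6.90 over a median of 8.48 to 10.34 in Li+, and from 6.79 over 8.01 to 8.93 in Ctrl. The groups overlapped widely, and the SD between rats (0.87 in Li+ and 0.70 in Ctrl) was larger than the mean difference. Within rats, Li+ minus Ctrl at day 7 was 0.38, 0.81, 0.76, 0.65, -0.27 and 1.45, and at day 28 it was 0.11, 1.33, 1.01, 1.40, 0.25 and -0.05, in the order of rat numbers. So 10 of 12 rats were higher in Li+, 5 on each day, with rats 11 and 30 the exceptions. The pooled difference was 0.65 ± 0.149 (SE, n = 12, 95% interval 0.33 to 0.97, 1.57-fold). The unadjusted p was 6.25e-04 and the adjusted p 0.963 in limma, and an exact sign-flip permutation over the 12 rats gave p = 0.00391, two-sided. *Ankrd34c* was sorted out by these same differences, so the permutation p is not corrected for that choice and is no separate support. Leaving out each rat in turn left the pooled difference between 0.58 and 0.74.

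*Ptcd3* encodes a protein of the small subunit of the mitochondrial ribosome. Its signal ran from 10.83 over 11.73 to 12.38 in Li+ and from 10.64 over 11.49 to 12.16 in Ctrl, again with wide overlap between groups. The 12 within-rat differences were 0.18, 0.17, 0.20, 0.57, -0.09 and 0.57 at day 7, and -0.03, 0.61, 0.64, 0.82, 0.12 and 0.13 at day 28. It averaged 0.32 ± 0.080 (SE, n = 12, 95% interval 0.15 to 0.50) and was higher in Li+ in 10 rats. The same rats gave large and small values for both genes: over the 12 rats the differences of *Ankrd34c* and *Ptcd3* correlated with Pearson's r = 0.878 and Spearman's rho = 0.881. Without the 2 rats farthest from the median on the *Ankrd34c* axis, rats 11 and 30, r was 0.849, and within the days it was 0.791 at day 7 and 0.956 at day 28. The pair was picked after its values were seen, so this is a description and its permutation p is not given. Among 11123 genes above the median signal *Ptcd3* ranked 7 by this r.

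*Mmp12*, macrophage elastase, is a protease that macrophages secrete to degrade elastin and other matrix. Its signal ran from 10.95 over 13.01 to 13.26 in Li+ and from 10.64 over 12.71 to 13.38 in Ctrl. At day 7 the differences were 0.23, 0.01, 0.11, 0.02, -0.14 and 0.39, and at day 28 they were 0.30, 0.62, 0.93, 0.65, 0.56 and 0.11. Rat 11 alone was lower in Li+, and 4 of the 6 rats at day 28 lay above every rat at day 7. The mean was 0.32 ± 0.085 (SE, n = 12, 95% interval 0.13 to 0.50), made of 0.10 at day 7 and 0.53 at day 28. The difference between the days had an unadjusted p of 0.0069 and an adjusted p of 0.9995 in limma, so it did not pass. Without rats 23, 27 and 29, all of day 28, the pooled mean was 0.19. Leaving them out also gives day 7 more weight than day 28, so this drop cannot be laid to those rats alone.

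The stretch before the start of *Mmp12* is shown because this gene led the macrophage list described below. The 250 bases upstream of its start site (RefSeq, assembly GRCr8, chr8:12866402-12866651, plus strand) read 5′ to 3′ as follows, with a match to the AP-1 motif TGANTCA in capitals whose first base lies 87 bases before the start.
Mmp12: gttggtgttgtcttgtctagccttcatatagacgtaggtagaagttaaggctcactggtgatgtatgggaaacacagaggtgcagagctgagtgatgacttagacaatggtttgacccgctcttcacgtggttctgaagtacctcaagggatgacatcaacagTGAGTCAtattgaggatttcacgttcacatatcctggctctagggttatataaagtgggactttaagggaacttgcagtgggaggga
AP-1 is the factor made of Fos and Jun proteins, and FOSL1, which the study stained in tissue, is a Fos protein. The motif, which reads the same on both strands whatever base N is, occurs in 7.33% of 27457 rat promoters of 300 bases, and in 4 of the 21 macrophage genes with a promoter sequence (*Cd68*, *Trem2*, *Gpnmb* and *Mmp12*). *Fosl1* itself differed by 0.03 (95% interval -0.09 to 0.16). A match is a description of the letters and shows no binding.

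The 10 genes of smallest p on the higher side, among those above the median signal, were *Ankrd34c*, *Tmem53*, *Ptcd3*, *Slc35a3*, *Ms4a4a*, *Lilrb3*, *Mmp12*, *Eif3j*, *Stx7* and *Cd59b*. Apart from the 3 described, they differed by 0.12 to 0.24. *Lilrb3*, an inhibitory receptor of myeloid cells, was 0.24 higher (SE 0.062, 10 of 12 rats), and *Ms4a4a*, a surface protein of macrophages, 0.18 higher (SE 0.046, 11 of 12 rats, 0.18 at both days). *Slc35a3* carries UDP-N-acetylglucosamine into the Golgi and was 0.13 higher, *Eif3j* is a subunit of translation initiation factor 3 and was 0.13 higher, and *Cd59b* guards cells against complement and was 0.14 higher. *Stx7*, a syntaxin of late endosome fusion, was 0.12 higher and was so in 12 of 12 rats. *Tmem53*, a nuclear envelope protein, was 0.15 higher.

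**Figure D1:**
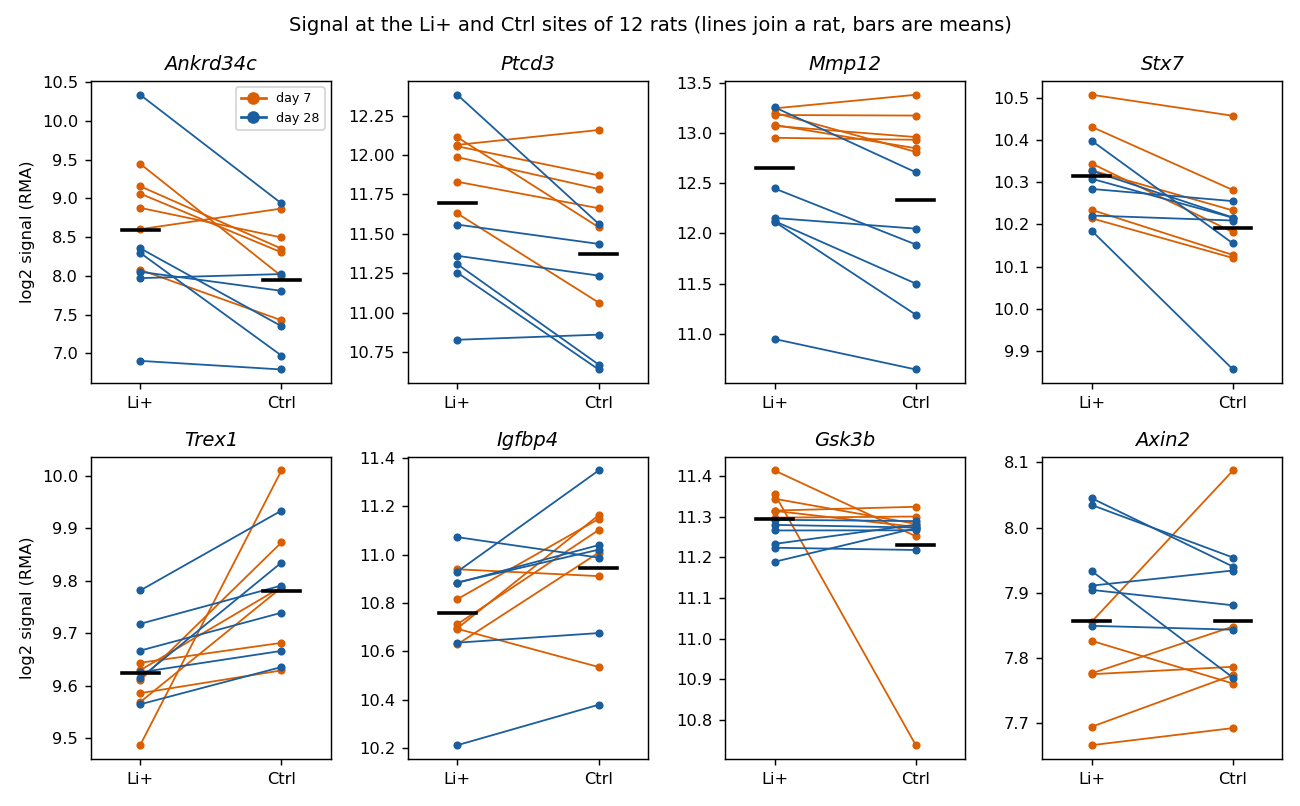
Log2 RMA signal (y axis) at the Li+ and Ctrl sites (x axis) of 8 genes. Lines join the sites of a rat, orange for day 7 and blue for day 28, and bars are means of 12 arrays. *Ankrd34c*, *Ptcd3* and *Mmp12* slope down towards Ctrl in 10, 10 and 11 of 12 rats, *Trex1* slopes up in 12, and the *Gsk3b* line that stands apart is rat 10.

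On the lower side the differences were smaller still, from -0.10 to -0.18. *Trex1*, the exonuclease that clears DNA from the cytosol, had signals of 9.49 over 9.62 to 9.78 in Li+ and of 9.63 over 9.79 to 10.01 in Ctrl. It was lower in Li+ in 12 of 12 rats, by between 0.04 and 0.52, with rat 10 farthest out. The mean was -0.16 ± 0.044 (SE, n = 12, 95% interval -0.25 to -0.06). An exact sign-flip permutation gave p = 4.88e-04, the smallest that 12 rats allow, while the adjusted p in limma was 0.963. Any gene with 12 of 12 rats on the same side gets this permutation p, and *Trex1* was sorted out by its p in limma. *Igfbp4*, which binds and restrains insulin-like growth factors in bone, averaged -0.18 ± 0.060 (SE, n = 12). *Fbln1*, an extracellular matrix fibulin, averaged -0.11, and *Dok3*, an adaptor that dampens signalling in B cells and myeloid cells, -0.11. The other 6 of the 10 were *Lmx1b* (a LIM homeobox factor of limb patterning) at -0.12, *Cant1* (a calcium-activated nucleotidase needed for proteoglycan synthesis) at -0.12, *Acot7* (an acyl-CoA thioesterase) at -0.12, *N4bp3* at -0.11, *Fam168b* at -0.11 and *Eaf1* (an elongation factor partner) at -0.10.

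**Figure D2:**
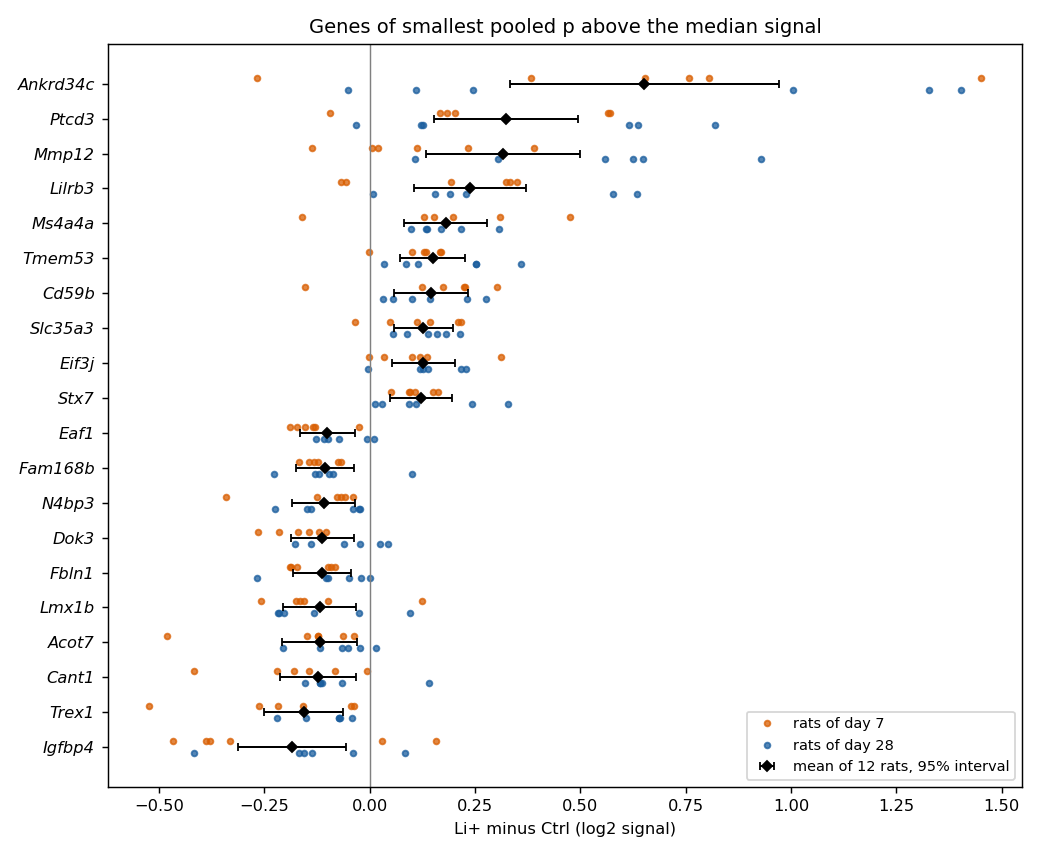
Li+ minus Ctrl (x axis, log2) for the 10 genes of smallest unadjusted p on each side among genes above the median signal. Orange points are rats of day 7, blue points rats of day 28, and diamonds with bars the mean of 12 rats with its 95% interval. The genes were sorted by these p-values, so that all 20 intervals exclude 0 follows from the choice, and 0 genes passed after adjustment.

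A difference of the same sign in every rat was rare, and among 18166 named genes random signs alone would also give a few. Whether the counts below exceed that was not tested. Of the named genes, 7 were higher in Li+ in 12 of 12 rats (0.0385%) and 5 were lower (0.0275%). The 7 were *Stx7*, *Tnip2* (0.14, an inhibitor of NF-κB activation), *Dynlt3* (0.12, a dynein light chain), *Yme1l1* (0.10, a protease of the inner mitochondrial membrane), *Fastkd3* (0.09, a regulator of mitochondrial RNA), *Man1a2* (0.09, a Golgi mannosidase) and *Smad2* (0.07, the transducer of TGF-β and activin signals). The 5 were *Trex1*, *N4bp3*, *Pxn* (-0.10, paxillin of focal adhesions), *Atf6b* (-0.09, an endoplasmic reticulum stress factor) and the dim olfactory receptor gene *Or5i1* (-0.16). Of these 12, *Stx7*, *Trex1* and *N4bp3* were also among the genes of smallest p, *Smad2* is named by the study, and the rest were named after their values were seen. *Smad2* lay between 9.75 and 9.92 in Li+ and between 9.61 and 9.83 in Ctrl, with differences from 0.02 to 0.15, a shift of 1.05-fold. For *Man1a2*, *Yme1l1*, *Atf6b*, *Pxn* and *N4bp3* rat 10 lay far out from the other rats of day 7.

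Effects shared by both days were looked for by asking which genes had the same sign and an unadjusted p under 0.05 on each day by itself. The days hold different rats, so they are separate samples. At day 7 alone 1 of 36495 probe sets passed the adjusted threshold (0.00274%) and at day 28 alone 0 did, with 1323 (3.63%) and 1577 (4.32%) at an unadjusted p. The probe set that passed at day 7 carries no symbol, had a mean signal of 3.68, and differed by -1.85 at day 7 and by -0.24 at day 28. On both days 46 probe sets met the criterion with the same sign (0.126%, 26 higher and 20 lower), and 41 met it with opposite signs (0.112%). Among the named genes the counts were 10 (0.055%) and 4 (0.022%). Above the median signal 2 genes were left (0.018%), *Ankrd34c* (0.63 at day 7 and 0.67 at day 28) and *Ptcd3* (0.27 and 0.38), both higher, with 0 of opposite sign. Of the genes above the median signal, 109 (0.98%) had an unadjusted p under 0.05 at day 7 and 222 (2%) at day 28. With such shares, unrelated days can also give a count this small. The remaining 8 of the 10 named genes are dim, and 6 of them are olfactory or vomeronasal receptor genes. The other two are *Nrcam*, a neuronal adhesion molecule (0.23 at day 7 and 0.25 at day 28, mean signal 7.02), and *Lefty2*, a secreted inhibitor of Nodal signalling (-0.21 and -0.14, mean signal 6.42).

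Over all genes the days had little in common. The difference had the same sign on both days for 53.2% of all probe sets, 55.5% of the named genes and 58.7% of the genes above the median signal. Across those 11124 genes the differences at day 7 and day 28 correlated with Pearson's r of 0.164 and Spearman's rho of 0.207, where genes are not independent replicates. Sign agreement was also counted among genes at an unadjusted p on a single day, without a test of the difference between directions. Of 168 genes above the median signal (1.51%) that were higher in Li+ at an unadjusted p at day 28, 114 (67.9%) were also above 0 at day 7, whereas of 54 that were lower (0.485%) 26 (48.1%) were also below 0 at day 7. In the other direction, 28 (65.1%) of the 43 genes higher at day 7 (0.387%) were above 0 at day 28, and 33 (50.0%) of the 66 lower at day 7 (0.593%) were below 0 at day 28. Over all named genes the shares from day 28 were alike, 57.1% on the higher and 56.7% on the lower side. A test of the difference between the days found 0 probe sets at an adjusted p and 1320 (3.62%) before adjustment.

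**Figure D3:**
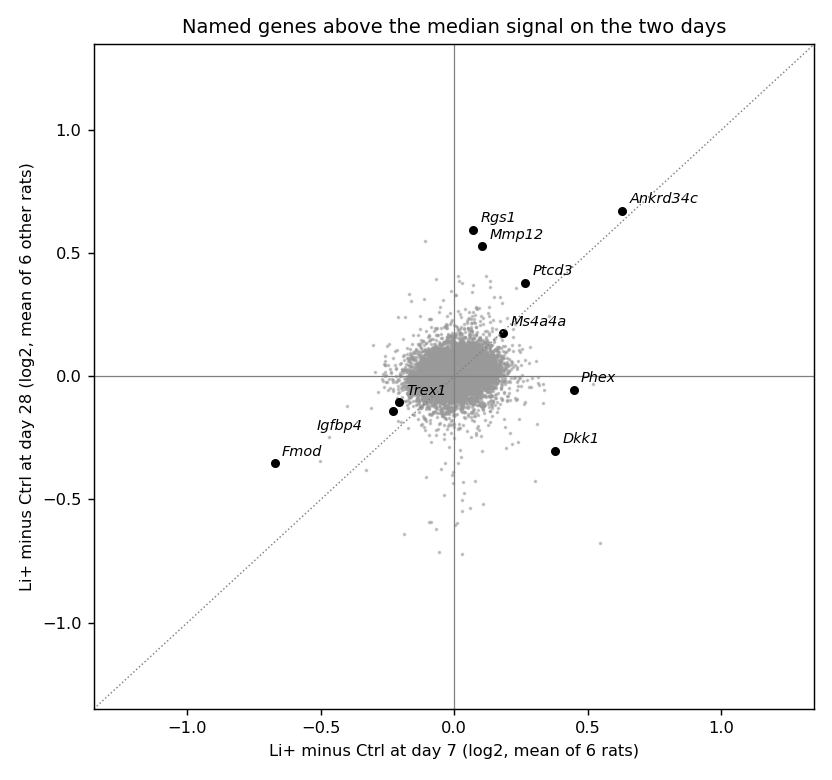
Li+ minus Ctrl at day 7 (x axis) against Li+ minus Ctrl at day 28 (y axis), each the log2 mean of 6 rats, for 11124 named genes above the median signal. The dotted line marks equal differences. Most genes form a cloud around 0, *Ankrd34c* and *Ptcd3* lie near the line, *Mmp12* and *Rgs1* lie towards day 28, and *Dkk1* and *Phex* are above 0 at day 7 and below 0 at day 28.

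Transcripts of the enzymes that lithium inhibits stayed close to their Ctrl level. *Gsk3b* differed by 0.06 ± 0.053 (SE, n = 12, 95% interval -0.05 to 0.18), with signals of 11.19 over 11.29 to 11.41 in Li+ and of 10.74 over 11.27 to 11.32 in Ctrl. Rat 10 gave 0.62 and the other 11 rats lay between -0.08 and 0.16, and it was the Ctrl array of rat 10 that read 10.74. *Gsk3a* differed by -0.05 (95% interval -0.18 to 0.07), and rat 10 gave -0.62 there. The inositol monophosphatases *Impa1* and *Impa2* differed by 0.01 and -0.02, *Inpp1* by 0.04, and the nucleotidases *Bpnt1* and *Bpnt2* by 0.03 and 0.07. Of the 9 genes on the list of lithium-inhibited phosphatases, 6 were above 0 and 0 passed an unadjusted p in either direction. On the list of inositol supply and the phosphoinositide cycle 3 of 19 were above 0, with a median of -0.02, again with 0 at an unadjusted p. Of 14 measured genes of lithium and sodium transport 1 was higher, *Slc8a1*, the sodium-calcium exchanger (0.13, SE 0.053, 10 of 12 rats).

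Wnt pathway genes gave the same picture from ligands to targets. β-catenin itself (*Ctnnb1*) differed by 0.02 (95% interval -0.08 to 0.12), its inhibitor *Ctnnbip1* by -0.08, and 8 of 17 genes of GSK3 and the destruction complex were above 0. *Ppp2r1b*, a scaffold subunit of protein phosphatase 2A that the study names, was at 0.08 with 9 of 12 rats above 0. Among 24 genes for Wnt ligands and their secretion 6 were above 0 and none passed an unadjusted p. Of 19 receptor genes 2 were lower at an unadjusted p, *Fzd9* (-0.11, SE 0.038) and *Fzd7* (-0.10, SE 0.047), and *Fzd6* was at 0.12 (SE 0.070). Of 16 secreted inhibitors 7 were above 0 with none past an unadjusted p. *Dkk1* and *Sost*, inhibitors that bind the co-receptors LRP5 and LRP6, had pooled values near 0 made of opposite days. *Dkk1* was at 0.38 at day 7 and -0.30 at day 28, and *Sost* at 0.22 and -0.28. The differences between days had unadjusted p-values of 0.010 and 0.012 and an adjusted p of 0.9995 in limma. Single rats weighed on both genes. With 1 rat left out, pooled *Dkk1* ran from -0.06 (without rat 10) to 0.10 (without rat 28). Pooled *Sost* ran from -0.07 (without rat 15) to 0.04 (without rat 28).

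Of 21 canonical Wnt targets and TCF factors 13 were above 0 and 0 passed an unadjusted p in either direction, with a median of 0.01. *Axin2*, a feedback inhibitor and a common target gene of the β-catenin pathway, lay between 7.67 and 8.04 in Li+ and between 7.69 and 8.09 in Ctrl. Its pooled difference was 0.00 ± 0.036 (SE, n = 12, 95% interval -0.08 to 0.08). *Sp5* differed by 0.01, *Nkd1* by -0.03, *Tcf7* by -0.03 and *Lef1* by -0.02. The 95% intervals of these 5 genes all lay between -0.13 and 0.10, and none came near 1.5-fold. The sequence before the *Axin2* start (RefSeq, assembly GRCr8, chr10:94398535-94398784, plus strand) is shown with a match to the TCF motif CTTTGAT in capitals. The first base of the match lies 132 bases before the start.
Axin2: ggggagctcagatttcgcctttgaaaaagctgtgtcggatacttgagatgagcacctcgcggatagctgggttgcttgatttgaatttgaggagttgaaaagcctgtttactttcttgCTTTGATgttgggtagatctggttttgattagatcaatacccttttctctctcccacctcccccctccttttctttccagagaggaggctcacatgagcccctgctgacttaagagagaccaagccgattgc
The motif, searched on both strands, is present in 3.62% of 27457 promoters of 300 bases and in 4 of the 13 targets and TCF genes with a promoter sequence (*Axin2*, *Tcf7*, *Nkd1* and *Sp5*). It is present in 0 of the 21 macrophage promoters. Here too a match describes the letters and shows no binding.

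**Figure D4:**
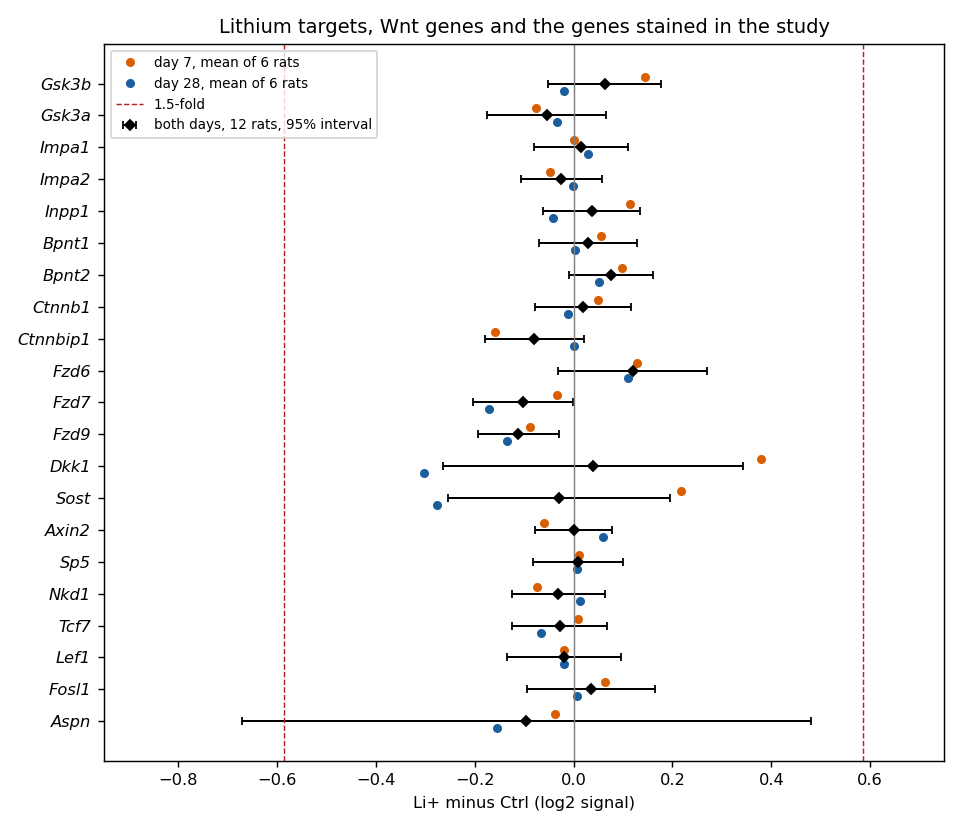
Li+ minus Ctrl (x axis, log2) for lithium targets, Wnt pathway genes and *Fosl1* and *Aspn*, which the study stained and measured by qPCR. Its qPCR found *Fosl1* higher in Li+ at day 7 and *Aspn* higher in Li+ at day 28. Black diamonds and bars are the mean of 12 rats and its 95% interval, orange and blue points the means of 6 rats at day 7 and day 28, and dashed lines 1.5-fold. All intervals shown lie inside the dashed lines except that of *Aspn*, and *Dkk1* and *Sost* have their day means on opposite sides of 0.

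Few genes of the bone cells had an unadjusted p under 0.05. Of 19 osteoblast genes 12 were above 0 and 0 passed an unadjusted p, with *Runx2* (the factor that commits cells to the osteoblast fate) at -0.02, *Col1a1* at 0.01 (95% interval -0.07 to 0.10), *Bglap* at 0.01 (95% interval -0.14 to 0.16) and *Alpl* (alkaline phosphatase) at -0.08. The list's mean ran from -0.51 in rat 7 to 0.42 in rat 15, a spread between rats of 0.263 (SD) around a mean of 0.02. Of 10 osteocyte genes 1 was lower, the dim *Kera* (-0.22, SE 0.101), and *Phex* was at 0.45 at day 7 and -0.05 at day 28, with a single value of 1.76 in rat 10 behind the first. The mean of the osteocyte list was below 0 in all 6 rats of day 28, from -0.25 to -0.03, and above 0 in 3 of the 6 rats of day 7, from -0.19 to 0.51, and the difference between the days was not tested for lists. Being on 1 side at day 28 was not particular to osteocyte genes. The Schwann cell and nerve list was above 0 in 0 of 6 rats, and the autophagy and lysosome and NRF2 antioxidant lists in 6 of 6. Of 13 osteoclast genes 4 were above 0 and 0 passed, with *Ctsk* at -0.04. Of 39 collagen and matrix genes 17 were above 0 and 2 were lower, *Fmod* and *Fbln1*. *Fmod* averaged -0.51 ± 0.234 (SE, n = 12), the lowest value of any named gene, with an unadjusted p of 0.046 in limma and p = 0.0781 by the exact sign-flip permutation. *Aspn* (asporin), a relative of *Fmod* that the study stained, differed by -0.10 with the wide interval of -0.67 to 0.48, and by -0.42 without rats 23, 27 and 29. *Omd* (osteomodulin) was at 0.19 with 10 of 12 rats above 0, and *Prelp* at -0.19.

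The list of macrophage and monocyte markers held the most genes at an unadjusted p. Of its 26 measured genes 21 were above 0 (50.3% of all named genes were), 7 were higher at an unadjusted p and 0 were lower. That is 26.9% higher, where the share over all named genes was 2.21%. The 7 were *Mmp12* (0.32), *Timd4* (0.27, a receptor for dying cells), *Ms4a4a* (0.18), *Folr2* (0.18, the folate receptor of tissue macrophages), *Ctss* (0.14, cathepsin S), *Mrc1* (0.14, the mannose receptor) and *Gpnmb* (0.12, a glycoprotein of lysosomes). *Trem2*, a lipid receptor of macrophages, was at 0.22 with an unadjusted p of 0.056, and at 0.13 without rats 23, 27 and 29. Of the defining markers, *Csf1r* and *Cd68* were at -0.00 and -0.01, and *Adgre1* (a surface receptor of macrophages) and *Cd163* at 0.06 (SE 0.057) and 0.09 (SE 0.079), none at an unadjusted p. The median of the list was 0.05, against 0.00 over all named genes, with 0.06 at day 7 and 0.08 at day 28. Erythroid and mast cell genes had higher medians, 0.07 each, with 17 of 19 and 13 of 15 genes above 0, so the macrophage list was not the highest by these measures. On both days 18 of the 26 were above 0, and 0 were below 0 on both days.

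Over rats the mean of the macrophage list was smaller than its SD. The mean over the 26 genes was 0.08 ± 0.118 (SD, n = 12), above 0 in 9 of 12 rats, from -0.11 in rat 7 to 0.26 in rat 23. *Mmp12*, *Folr2* and *Ms4a4a* were known to be high when the list was written, and of the 23 genes without them 18 were above 0 and 4 were higher (17.4%), with a median of 0.04. The other members were also chosen with earlier results of these data known, so neither share is independent support. Without rats 23, 27 and 29, and also without rats 10 and 23, 4 of the 26 genes were higher, with medians of 0.04 and 0.03. In bulk tissue a larger share of a cell type and more RNA per cell cannot be told apart. The 26 genes share their 12 rats and are not independent.

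**Figure D5:**
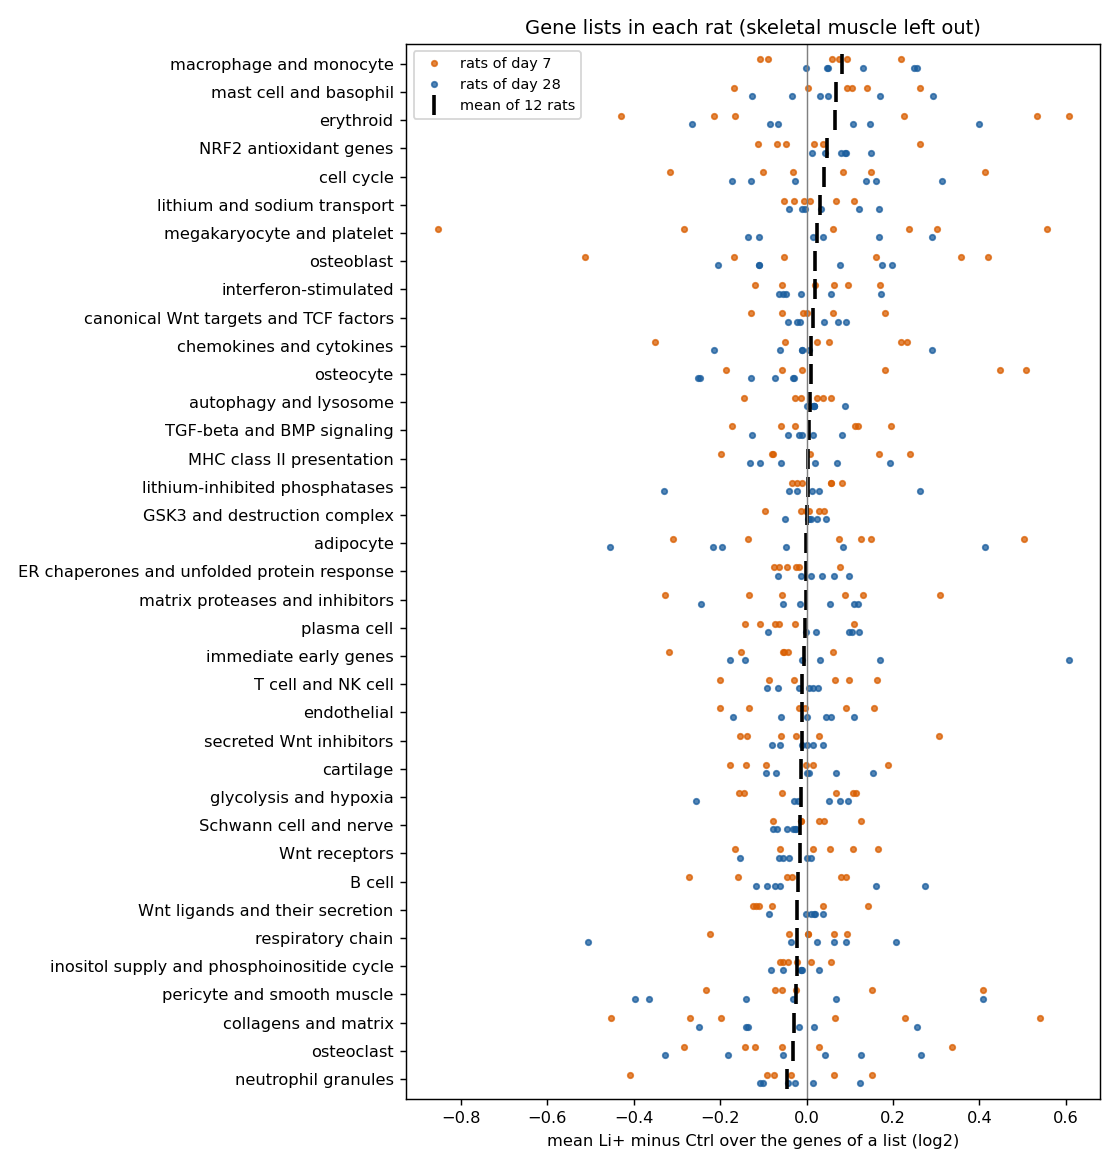
Mean Li+ minus Ctrl over the genes of a list (x axis, log2) for 37 lists, sorted by the mean of the 12 rats (black bars), with rats of day 7 in orange and rats of day 28 in blue. The macrophage and monocyte list has the highest mean, 0.08, and every list has rats on both sides of 0.

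Medians of the 38 lists ran from -0.33 for skeletal muscle to 0.07 for erythroid genes, and 33 lay within 0.05 of 0. The 5 beyond were skeletal muscle, neutrophil granules (-0.05), macrophages, mast cells and erythroid genes. Of 731 measured list genes 27 had an unadjusted p under 0.05 (3.69%), against 3.73% of all named genes, and no list had more than 9 of 12 rats on the same side. For skeletal muscle 0 of 24 genes were above 0 and 0 passed, and the direction turned on a single rat. The list was at -4.60 in rat 23, 4.15 in rat 27 and -2.62 in rat 29. Without rat 23 its median was 0.10 with 23 of 24 genes above 0, and without all 3 it was -0.04 with 3 above 0. Among NRF2 antioxidant genes 14 of 21 were above 0 and 2 were higher, the aldo-keto reductase *Akr1b8* (0.29) and *Nfe2l2* (0.10), which encodes NRF2, while its targets *Gclc* and *Srxn1* were at 0.13 and 0.09. Of 15 mast cell and basophil genes 13 were above 0 and 1 was higher, *Cpa3* (0.14, mast cell carboxypeptidase), with *Mcpt1* at 0.52 at day 7 and -0.03 at day 28. Pooled *Mcpt1* was at 0.24, and at 0.13 without rat 10, a rat of day 7. Of 39 chemokines and cytokines 1 was higher, the monocyte chemoattractant *Ccl4* (0.24), and 2 were lower, *Cxcl1* (-0.16, a dim neutrophil chemoattractant) and *Cx3cl1* (-0.10, fractalkine).

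On several other lists a gene or a pair of genes had an unadjusted p under 0.05, where the share of all named genes was 3.73%. *Rgs1*, a brake on G-protein signals in lymphocytes, was 0.33 higher (0.07 at day 7 and 0.60 at day 28, and 0.22 pooled without rats 23, 27 and 29), and *Cd5* of T cells was 0.10 lower, the only 2 of 24 T and NK cell genes at an unadjusted p. *Tek*, the angiopoietin receptor, was 0.11 higher as the only 1 of 16 endothelial genes, and *P2ry1*, a platelet receptor for ADP, 0.13 higher as the only 1 of 15 megakaryocyte genes. Of 22 lysosome and autophagy genes *Ctsl* (cathepsin L) was 0.15 higher, and of 20 immediate early genes *Klf2* was 0.14 lower. *Smad2* was the only 1 of 35 TGF-β and BMP genes, and of 12 MHC class II genes *Ctss*, shared with the macrophage list, was higher and *RT1-DMa*, a peptide exchange subunit, 0.10 lower. Neutrophil granule genes had 4 of 21 above 0 and erythroid genes 17 of 19, with 0 at an unadjusted p on either list.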

How the data were processed

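Peri-implant bone from 12 rats was hybridized to 24 Affymetrix Rat Gene 2.0 ST arrays. The deposited values are log2 signals that the authors background corrected, quantile normalized and summarized by RMA in Expression Console 1.1.2, per the Methods and the submitters' processing notes. RMA pulls arrays to a common distribution, so a shift of all genes cannot be seen (array medians 7.23 to 7.34). They were used as deposited. The table holds 36685 probe sets, of which 190 controls were left out. The platform's annotation gives a single symbol to 18511 of the rest, several to 575 and none to 17409, and 18394 were found through Entrez identifiers. The brightest probe set stands for each of 18166 genes, of which 291 have several.

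Li+ minus Ctrl was taken within each rat, arrays being matched by the animal number in their titles. As a check, arrays of a rat correlated after removal of group means with a median of 0.279 (0.0675 to 0.569), and arrays of different rats with a median of -0.0347. The mean of the 12 differences, or of the 6 of a day, was tested against 0 in R 4.3.3 with limma 3.58.1 and adjusted by Benjamini-Hochberg over 36495 probe sets at 0.05. The 1.5-fold limit follows the study. The procedure was tested on simulated data. The number of rats limits the precision. No scan date or batch is given in the sources used here.

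Genes are named when they are among the 10 of smallest p on either side above the median signal, meet the criterion on both days, are lithium targets or named by the study, or are defining members or among up to 4 of smallest p on a list. Others were named after their values were seen. Members and lists were chosen with earlier results of these data known. Alternatives left out rats, changed the filter or centring, dropped the pairing, or used other fits.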

Additional observations from a re-analysis of the deposited data

Results flagged for a closer look

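In each group of 6 rats the highest and the lowest difference were compared with the rest, and a value was picked out where its gap to the nearest other rat took more of the whole range than Dixon's limit for 6 values allows. This was done for the named genes and the lists in 274 groups, of which 21 were picked out. Chance alone gives about 1 in 20. The share of the range is given in brackets.

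Rat 10 at day 7 accounted for 10 of the 21, all single genes. It was highest for *Man1a2* at 0.40 with the other rats at 0.00 to 0.04 (0.901), *Yme1l1* at 0.36 (0.852) and *Gsk3b* at 0.62 (0.727). It was lowest for *Atf6b* at -0.51 with the other rats at -0.10 to -0.03 (0.857), *Gsk3a* at -0.62 (0.769), *Acot7* at -0.48 (0.748), *Klf2* at -0.65 (0.737), *Cx3cl1* at -0.39 (0.737), *Pxn* at -0.44 (0.720) and *N4bp3* at -0.34 (0.715). Over all genes rat 10 had the largest interquartile range of differences, 0.408, while the SD was largest in rat 23, 0.402 against 0.313 in rat 10. What sets its arrays apart was not tested.

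Among macrophage genes, *Csf1r* (0.636) and *Gpnmb* (0.673) were highest in rat 15 at day 7, at 0.40 and 0.37, and *Timd4* was highest in rat 28 at day 28, at 1.43 with the others at -0.08 to 0.45 (0.651). In Wnt genes, *Fzd6* was highest in rat 27 at day 28 at 0.58 (0.676) and *Ctnnb1* lowest in rat 29 at -0.14 (0.642). *Cant1* was highest in rat 21 at day 28 at 0.14 (0.700), and *Eaf1* highest in rat 5 at day 7 at -0.03 (0.632).

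Of the lists at day 28, autophagy and lysosome genes were highest (0.818) and Wnt ligands lowest (0.677) in rat 28, at 0.09 and -0.09. The respiratory chain (0.659) and glycolysis and hypoxia (0.642) lists were lowest in rat 23, at -0.51 and -0.26, the rat whose muscle genes were at -4.60. No gene differed between the days at an adjusted p, and lists were not tested for it.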

How the results depend on the processing

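The count of 0 at an adjusted p held in the alternatives run, the replicate block as a random effect (1701 at an unadjusted p) and day as a term (1596) included, except without rats 23, 27 and 29, where 1 unnamed probe set passed. At an unadjusted p the 1637 probe sets became 842 above the median signal, 840 with 1 gene symbol and 909 with no replicate block, and 1525 to 2012 with each rat left out. Higher and lower were 928 and 709, against 809 and 839 without rat 23, 799 and 825 without rats 23, 27 and 29, and 852 and 982 without rats 10 and 23. Above the median signal they were 541 and 301. Past 1.5-fold, 6 became 1 above the median signal, 1 with 1 gene symbol and 11 without rats 23, 27 and 29. Counts of effects shared by both days were 19 and 20 under these filters, 70 without rats 10 and 23 and 13 with no replicate block, against 46. The macrophage list had 4 genes higher, against 7, without rats 23, 27 and 29 and also without rats 10 and 23, and had 6 to 8 with each rat left out. The list and its settings without rats 10 and 23 were chosen after seeing the data. The causes were not tested, beyond fewer features in the filters.

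Of 99 genes named, 84 kept their sign in every alternative. Rats 23, 27 and 29 are all of day 28, so leaving them out also moves a pooled mean towards its day 7 value by weighting. Without rats 23, 27 and 29, *Axin2* was at -0.0117, *Csf1r* at 0.0232, *Impa1* at -0.00129 and *Sp5* at -0.00052. Without rats 10 and 23, *Bglap* was at -0.0347, *Cd163* at -0.00296, *Csf1r* at 0.0153, *Ctnnb1* at -0.00944, *Dkk1* at -0.0780, *Impa1* at -0.0270 and *Inpp1* at -0.0085, and with arrays centred *Axin2* was at -0.000947. Among genes at 0.1 or more, leaving out rats 23, 27 and 29 moved *Mmp12*, *Trem2*, *Rgs1*, *Phex* (0.32), *Prelp* (-0.29), *Cxcl1* (-0.10), *Fzd7* (-0.06), *Lpl* (0.07) and *Tm4sf19* (0.10) by over 1.5 times, and leaving out rats 10 and 23 moved *Acot7* (-0.07), *Alcam* (0.12), *Gclc* (0.06), *Lpl* (0.08), *Mcpt1* (0.13), *Mrc1* (0.08), *Nfe2l2* (0.06) and *Phex* (0.10). With each rat left out in turn, ranges crossed 0 for *Aspn* (-0.252 to 0.0396), *Axin2* (-0.0148 to 0.0211), *Bglap* (-0.0140 to 0.0521), *Cd68* (-0.0429 to 0.0109), *Csf1r* (-0.0373 to 0.0173), *Ctnnb1* (-0.00866 to 0.0382), *Dkk1* (-0.0644 to 0.102), *Ibsp* (-0.0508 to 0.0335), *Impa1* (-0.0118 to 0.0327), *Lef1* (-0.0429 to 0.00806), *Runx2* (-0.0618 to 0.0103), *Sost* (-0.0731 to 0.0437) and *Sp5* (-0.0101 to 0.0314).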

Other observations

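The genes whose Li+ minus Ctrl followed that of *Ankrd34c* most closely over the 12 rats were ranked by Pearson's r among 11123 genes above the median signal, after the values were seen and as a description only. They were *Lama3* (r = 0.94, a laminin chain), *Lpl* (0.94, lipoprotein lipase), *Alcam* (0.93, an adhesion molecule of leukocytes), *Abcc5* (0.91, an exporter of cyclic nucleotides), *Tm4sf19* (0.90, a tetraspanning membrane protein), *Tns3* (0.89, a tensin of focal adhesions), *Ptcd3* (0.88), *Qprt* (0.87, an enzyme of NAD synthesis), *Rab7b* (0.86, a small GTPase of late endosomes) and *Lipa* (0.86, lysosomal acid lipase). All 10 had pooled differences above 0. *Ankrd34c* has the highest pooled difference of the named genes, and genes that follow it share the deviations of its rats. The shared sign is therefore no separate support. *Rab7b* averaged 0.25 ± 0.097, *Lipa* 0.21 ± 0.068 and *Lama3* 0.19 ± 0.074 (SE, n = 12 each), with unadjusted p-values of 0.022, 0.0086 and 0.023 in limma and none at an adjusted p. *Lipa* ran from 10.97 over 11.58 to 12.16 in Li+ and from 10.73 over 11.45 to 12.01 in Ctrl, and was higher in 10 of 12 rats. *Ptcd3* is described above. For *Lpl*, *Alcam*, *Abcc5*, *Tm4sf19*, *Tns3* and *Qprt* the 95% interval held 0, such as *Lpl* at 0.13 (-0.05 to 0.30) and *Tm4sf19* at 0.15 (-0.07 to 0.36). Rat 11, in which *Ankrd34c* was at -0.27, also had the lowest difference for *Lama3*, *Lpl*, *Alcam*, *Tm4sf19*, *Tns3*, *Qprt*, *Rab7b* and *Lipa*. A ranking by r favours genes that are low in the same rat.

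Beside that with *Ptcd3*, 5 relations of *Ankrd34c* were computed, with p-values adjusted over all 6, and 0 of these 5 passed. All 6 were picked after the values were seen, so the p-values are given as a description only. *Ankrd34c* against *Mmp12* gave r = 0.568 (permutation p = 0.0520, adjusted 0.138) and rho = 0.580, with r = 0.764 at day 7, 0.756 at day 28 and 0.369 without rats 11 and 30. Against the macrophage list it gave r = 0.544 (adjusted p 0.138), with 0.178 at day 7, 0.950 at day 28 and 0.660 without rats 11 and 30. Against the osteoclast, osteoblast and muscle lists r was 0.321, 0.169 and -0.109.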
